A study of Mus musculus with 10 samples.

Results

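Genes of endoplasmic reticulum (ER) protein folding and the unfolded protein response (UPR) were examined in mouse peritoneal macrophages after stimulation with oxidized low-density lipoprotein (ox-LDL). The 10 genes were chosen by name, as ER chaperones and genes of the XBP1 and ATF6 response, out of 39488 rows of the count table, and all 10 had a row and enough counts to be tested. Macrophages of wild-type C57BL/6 mice aged 8 weeks were drawn from the peritoneal cavity after thioglycollate, an irritant that brings monocyte-derived macrophages into the cavity, and were cultured in 2 groups with 5 libraries each. The ox-LDL group received LPS, a bacterial cell wall product, at 100 ng/ml and then ox-LDL, the modified lipoprotein that loads macrophages with lipid, at 100 µg/ml for 16 h. The control libraries carry the label untreated, although the protocol text shared by all samples does not set them apart, and the study's own text leaves unclear whether the controls were primed with LPS as well. As labelled, no library received only one of LPS and ox-LDL, so their effects cannot be told apart, and if the controls were also primed the comparison is of ox-LDL alone. The design text calls the libraries biological replicates, without saying whether each came from its own animal, so p-values measure the spread between these libraries.

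Secretory and membrane proteins fold inside the ER, where chaperones bind unfolded chains, lectin chaperones bind their sugar chains, and disulfide isomerases join their cysteines. When unfolded proteins accumulate, the sensors IRE1, ATF6 and PERK are released from the chaperone BiP. IRE1 splices the mRNA of XBP1 into the form that encodes an active transcription factor, cleaved ATF6 enters the nucleus, and PERK slows translation while ATF4 is made. Spliced XBP1 and cleaved ATF6 raise chaperone and degradation genes through promoter elements known as ER stress response elements. Macrophages secrete many proteins, and these sensors are also known to be engaged by lipid loading and by Toll-like receptor signals.

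The best known of these elements, ERSE, has the letters CCAAT and CCACG with 9 bases of any kind between them, and a shorter form, ERSE-II, has ATTGG and CCACG with 1 base between them. Both were searched on both strands from 250 bases before to 50 bases after the start of each gene in RefSeq promoters of GRCm38.p6, which were matched for all 10 genes. ERSE was held by 0.119% and ERSE-II by 0.0365% of 32851 such promoters. Hspa5, Calr and Canx had 1 ERSE each, Hsp90b1 had 2, and Herpud1 had 1 ERSE-II, whereas Pdia3, Pdia4, Dnajb9, Sdf2l1 and Xbp1 had neither element in this window. The core of another element, TGACGTGG, was in none of the 10 windows and in 0.676% of all promoters. The upstream 250 bases are printed 5′ to 3′ on the gene's own strand for Hspa5, the classical target of the response, for Hsp90b1, with its pair of elements, for Herpud1, with the short form, and for Sdf2l1, the gene with the lowest fold change and without either element, with capitals marking ERSE or ERSE-II. The windows are chr2:34771840-34772089 (plus strand) for Hspa5, chr10:86705445-86705694 (minus strand) for Hsp90b1, chr8:94386179-94386428 (plus strand) for Herpud1 and chr16:17132384-17132633 (minus strand) for Sdf2l1, all of GRCm38.p6.
Hspa5: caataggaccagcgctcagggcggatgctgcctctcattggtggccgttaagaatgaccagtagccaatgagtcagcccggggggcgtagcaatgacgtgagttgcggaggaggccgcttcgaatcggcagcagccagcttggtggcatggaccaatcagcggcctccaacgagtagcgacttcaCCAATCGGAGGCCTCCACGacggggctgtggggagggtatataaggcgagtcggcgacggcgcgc
Hsp90b1: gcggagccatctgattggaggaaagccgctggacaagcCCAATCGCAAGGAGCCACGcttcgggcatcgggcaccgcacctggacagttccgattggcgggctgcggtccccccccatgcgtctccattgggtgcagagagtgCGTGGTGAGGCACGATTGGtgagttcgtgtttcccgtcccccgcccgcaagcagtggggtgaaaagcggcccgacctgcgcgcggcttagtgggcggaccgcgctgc
Herpud1: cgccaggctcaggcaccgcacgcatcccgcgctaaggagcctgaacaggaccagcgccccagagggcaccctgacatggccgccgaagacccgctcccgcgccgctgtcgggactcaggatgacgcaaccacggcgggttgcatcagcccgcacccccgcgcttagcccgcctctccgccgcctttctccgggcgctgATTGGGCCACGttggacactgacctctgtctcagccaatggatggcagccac
Sdf2l1: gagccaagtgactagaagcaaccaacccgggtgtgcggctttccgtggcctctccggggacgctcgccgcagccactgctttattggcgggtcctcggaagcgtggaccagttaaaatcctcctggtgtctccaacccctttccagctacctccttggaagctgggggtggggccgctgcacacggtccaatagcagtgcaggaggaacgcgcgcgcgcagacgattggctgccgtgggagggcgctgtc
The element of Hspa5 begins 65 bases before the start of the gene, that of Herpud1 begins 52 bases before it, and those of Hsp90b1 begin 212 and 107 bases before it, the latter on the opposite strand. Each ERSE contains a CCAAT box on its own strand and the ERSE-II overlaps one, a box that 37.4% of all promoters hold. A match of letters is a description of the sequence and not a site of binding.

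Library totals were 19257131 to 20687289 counts, so depth was even. After the data were seen, 3 libraries were set apart, ox-LDL replicate 2 and replicate 5 of either group. The mean chi-square per gene, a measure of how far 2 libraries differ, was 526.5 to 593 between ox-LDL replicate 2 and the others. It was 170 to 238 between ox-LDL replicate 5 and replicates 1, 3 and 4, which differed by 30.1 to 100. For control replicate 5 it was 82.5 to 195.5, a range that overlapped the 12 to 120 among the other controls. In ox-LDL replicate 2 expression fell with gene length (Spearman correlation of -0.66 between the deviation of a gene from its group mean and its length, over 12235 genes), and its TMM normalization factor, which corrects for differences in composition, was 0.593. A like trend was seen in controls 1 and 4, at -0.59 and -0.49, and the other libraries were between 0.09 and 0.51. Control replicate 5 and ox-LDL replicate 5 were each the lowest library of their group for Dnajb9 and Herpud1. The macrophage markers were abundant in all libraries, with a summed level of 25360 to 45850 CPM (counts scaled to a common library size) in controls and 14690 to 31250 in ox-LDL libraries, scaled by library size. The whole list of 10 markers was detected, and Lyz2, which encodes lysozyme, made up most of the sum.

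None of the 10 genes was called higher or lower at an adjusted p below 0.01 in edgeR's quasi-likelihood test, whereas 14.7% of the 12654 genes tested were called, 9.4% as higher and 5.35% as lower. At an unadjusted p below 0.05, 1 of the 10 genes was counted against 38.7% of all genes tested. DESeq2 called 1 of the 10, Pdia3 as lower, beside 1765 higher and 1244 lower of the 12654 genes tested. With limma-voom 0 of the 10 were called, beside 1151 higher and 801 lower. Log2 fold changes ran from -0.87 for Sdf2l1 to 0.00 for Hspa5. Of the 10, 9 were negative, beside 5537 of all 12654 genes tested. The median of the 10 was -0.17, beside a median of 0.10 over all genes tested. Without ox-LDL replicate 2 the medians were -0.28 and 0.00. In that fit 7 of the 10 were negative, beside 6481 of all 12973 genes tested. The plot of fold changes shows all 10 intervals under 3 ways of fitting. A loss of cells and a lower amount of an RNA per cell cannot be told apart in these bulk libraries.

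**Figure D1:**
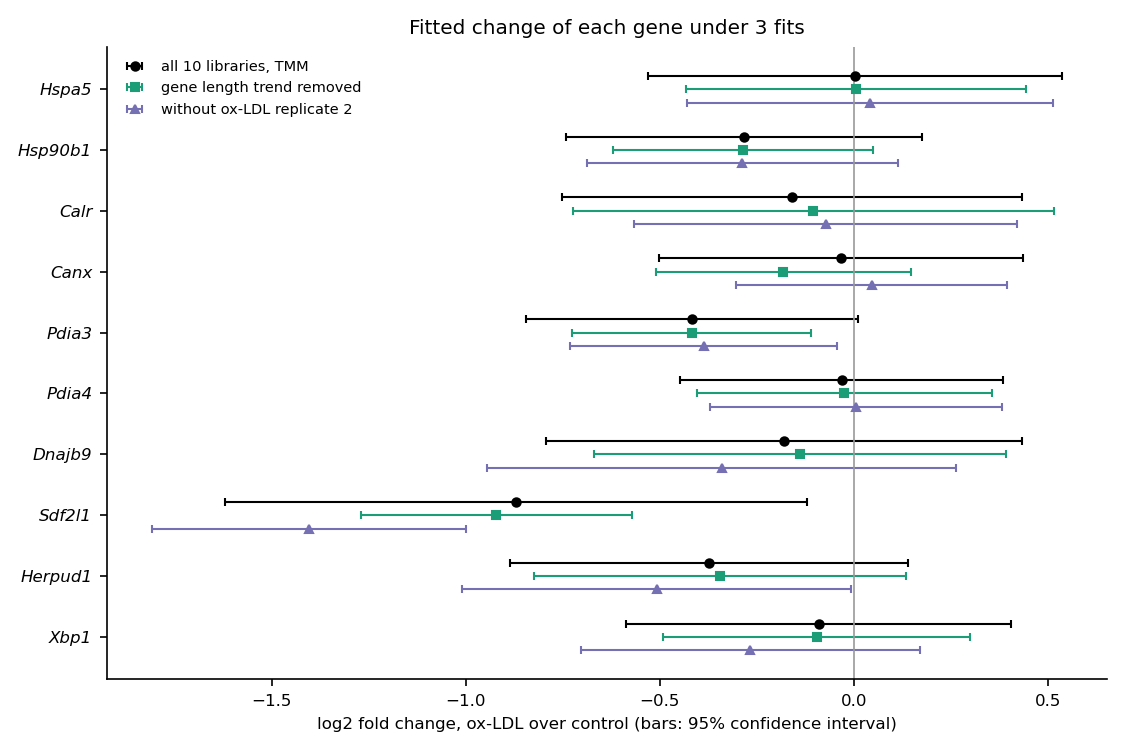
Log2 fold change of the 10 genes (ox-LDL over control, 5 libraries each) with its 95% confidence interval from edgeR's quasi-likelihood test, for all 10 libraries, after removal of each library's trend of expression with gene length, and without ox-LDL replicate 2. The intervals of Sdf2l1 lie below 0 in all 3 fits, while those of Hspa5 lie around 0. That of Pdia3 lies below 0 after removal of the trend and without ox-LDL replicate 2. Without ox-LDL replicate 2 that of Herpud1 also lies below 0.

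Among the chaperones of the Hsp70 and Hsp90 families, Hspa5 (NCBI gene 14828, chr2:34627490-34632051, plus strand, of NCBIM37, which is mm9) encodes BiP, the ER chaperone that also holds the sensors inactive. Its TMM-normalized level was 461, 707, 714, 544 and 549 CPM in controls 1 to 5 and 458, 466, 667, 550 and 837 CPM in ox-LDL replicates 1 to 5. The groups overlapped, with the highest library and the lowest one both in the ox-LDL group. The group means were 595 ± 111 CPM for controls and 596 ± 159 CPM for the ox-LDL group (SD, n = 5 per group), a log2 fold change of 0.00 (standard error, SE, 0.24, edgeR adjusted p = 0.997). The 95% confidence interval of the fold ran from 0.692 to 1.45, so folds within these bounds were not excluded. Hsp90b1 (NCBI gene 22027, chr10:86152954-86168254, minus strand) encodes GRP94, the Hsp90 of the ER, on which Toll-like receptors and integrins depend for folding. Its level was 665, 828, 815, 710 and 550 CPM in controls 1 to 5 and 557, 528, 708, 520 and 621 CPM in ox-LDL replicates 1 to 5. The groups overlapped, and only 2 of the ox-LDL libraries lay below every control. The means of Hsp90b1 were 714 ± 115 and 587 ± 78.5 CPM (SD, n = 5 per group), a log2 fold change of -0.28 (SE 0.21, edgeR adjusted p = 0.350). A lincRNA gene lies across Hsp90b1 on the opposite strand, and the use of strand in the counting is not stated.

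**Figure D2:**
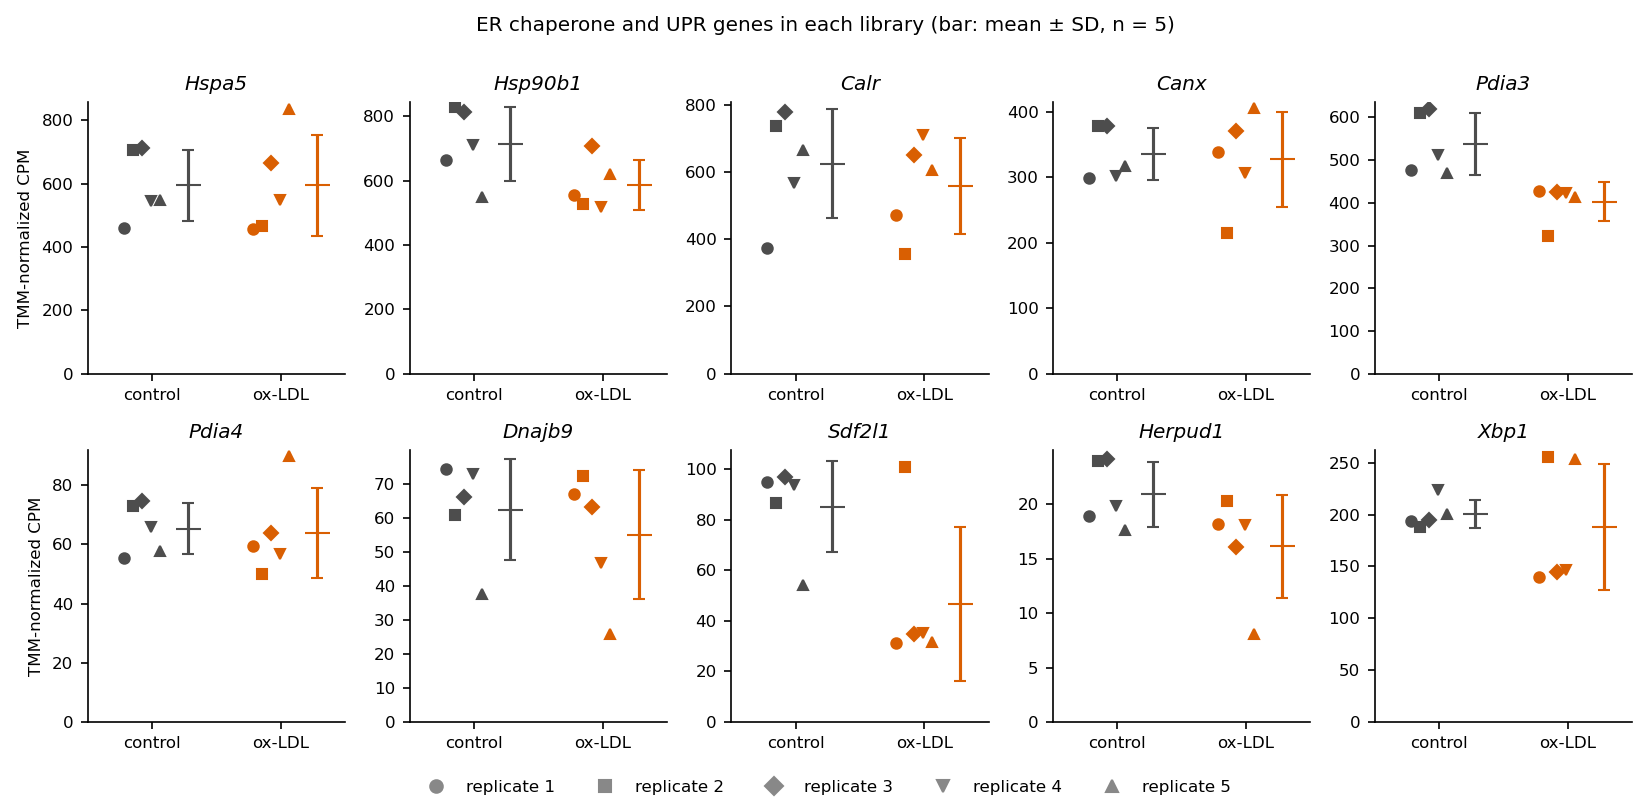
TMM-normalized CPM of each of the 10 genes by library, one panel per gene, with a marker shape for each replicate and bars for the mean ± SD of 5 libraries per group. Only for Pdia3 do all ox-LDL libraries, at 322 to 428 CPM, lie below all controls, at 469 to 621 CPM.

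The lectin chaperones calreticulin and calnexin hold glycoproteins while they fold, the first soluble and the second anchored in the membrane. Calr (NCBI gene 12317, chr8:87365749-87370833, minus strand) was at 372, 735, 779, 566 and 666 CPM in controls 1 to 5 and at 471, 356, 651, 710 and 604 CPM in ox-LDL replicates 1 to 5. The lowest values of Calr were in control replicate 1 and ox-LDL replicate 2, both of them libraries with the inverse length trend. With that trend removed these values were lower still, at 340 and 284 CPM, and remained the lowest of their groups. The log2 fold change of Calr was -0.16 (SE 0.27, edgeR adjusted p = 0.7095), and it ranged from -0.31 without control replicate 1 to -0.07 without ox-LDL replicate 2. Canx (NCBI gene 12330, chr11:50107969-50139175, minus strand) was at 300, 378, 378, 302 and 318 CPM in controls 1 to 5 and at 339, 215, 371, 307 and 405 CPM in ox-LDL replicates 1 to 5. Its controls lay close together, while the ox-LDL libraries reached both below and above them. The means of Canx were 335 ± 39.9 and 327 ± 72.7 CPM (SD, n = 5 per group), with a log2 fold change of -0.03 (SE 0.22, edgeR adjusted p = 0.930).

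Of the disulfide isomerases, Pdia3 (NCBI gene 14827, chr2:121239511-121264423, plus strand) encodes ERp57, the partner of calreticulin and calnexin in glycoprotein folding and in the loading of MHC class I. Its level was 477, 610, 621, 513 and 469 CPM in controls 1 to 5 and 428, 322, 426, 424 and 414 CPM in ox-LDL replicates 1 to 5. Every ox-LDL library was below every control, as was so for 9.11% of all genes tested, and Pdia3 was the only one of the 10 genes without overlap on this scale. With CPM scaled by library size alone, its groups overlapped. With the length trend removed they did not, as for 12.3% of all genes tested in the same direction. The means of Pdia3 were 538 ± 72.6 and 403 ± 45.4 CPM (SD, n = 5 per group), a log2 fold change of -0.42 (SE 0.20, 95% confidence interval -0.85 to 0.01, edgeR adjusted p = 0.138). The call depended on the tool, since DESeq2 gave an adjusted p of 0.00890 at a log2 fold change of -0.43. With the length trend removed the interval was -0.73 to -0.11 (edgeR adjusted p = 0.0367). Without ox-LDL replicate 2 it was -0.73 to -0.04 (edgeR adjusted p = 0.0662), and Pdia3 was called in neither fit. Catsper2 overlaps Pdia3 on the opposite strand, and reads of both cannot be told apart without a stranded count. Pdia4 (NCBI gene 12304, chr6:47746141-47763511, minus strand) encodes ERp72, an isomerase known to bind BiP and GRP94. Its level was 55.5, 73.0, 74.6, 65.8 and 57.7 CPM in controls 1 to 5 and 59.5, 50.01, 63.7, 56.6 and 89.7 CPM in ox-LDL replicates 1 to 5. Ox-LDL replicate 5 was the highest of all libraries for Pdia4, as it was for Hspa5 and Canx. The log2 fold change of Pdia4 was -0.03 (SE 0.19, edgeR adjusted p = 0.926). Without ox-LDL replicate 5 the values were -0.20 for Pdia4, -0.16 for Hspa5 and -0.14 for Canx.

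Sdf2l1 (NCBI gene 64136, chr16:17130231-17132476, minus strand) encodes a soluble ER protein that works with BiP and its J-domain partners and is known as an early target of ATF6 and XBP1. Its level was 95.1, 86.6, 97.0, 93.6 and 54.0 CPM in controls 1 to 5 and 31.4, 100.9, 34.7, 35.0 and 31.7 CPM in ox-LDL replicates 1 to 5. The groups overlapped through a single library, as 4 ox-LDL libraries lay below every control and ox-LDL replicate 2 lay above every control. The means were 85.3 ± 17.9 and 46.7 ± 30.3 CPM (SD, n = 5 per group), a log2 fold change of -0.87 (SE 0.34, 95% confidence interval -1.62 to -0.12, edgeR adjusted p = 0.0820). Sdf2l1 thus had the lowest fold change of the 10 genes and the only unadjusted p below 0.05, and it was not called.

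The value of Sdf2l1 turned on ox-LDL replicate 2. Without that library the log2 fold change was -1.40 (SE 0.18, edgeR adjusted p = 1.80e-04, where 11.6% of the 12973 genes tested were called lower). At a length of 964 bases, as computed from the deposited values, Sdf2l1 is the shortest of the 10 genes, and short genes were high in that library. Whether its length accounts for its value there was not tested. When each library's trend with gene length was removed, Sdf2l1 was at 72.5, 94.0, 106.9, 74.7 and 60.7 CPM in controls 1 to 5 and at 41.5, 43.2, 45.0, 47.6 and 38.6 CPM in ox-LDL replicates 1 to 5. On that scale the groups no longer overlapped, as for 12.3% of all genes tested in the same direction, and ox-LDL replicate 2 lay among the other ox-LDL libraries. The same step also lowered controls 1 and 4, which were at 95.1 and 93.6 CPM under TMM. The log2 fold change was then -0.92 (SE 0.16, edgeR adjusted p = 8.84e-04), in a fit that called 9.19% of all genes tested as lower and none of the other 9 genes. Scaled by library size alone, which makes no correction for composition, the groups also did not overlap, with 62.3 to 114 CPM in controls and 26.5 to 59.7 CPM in ox-LDL libraries. Of all genes tested, 10.7% had all ox-LDL libraries lower on that scale. The plot of Sdf2l1 under TMM and after removal of the length trend shows how each library moves.

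**Figure D3:**
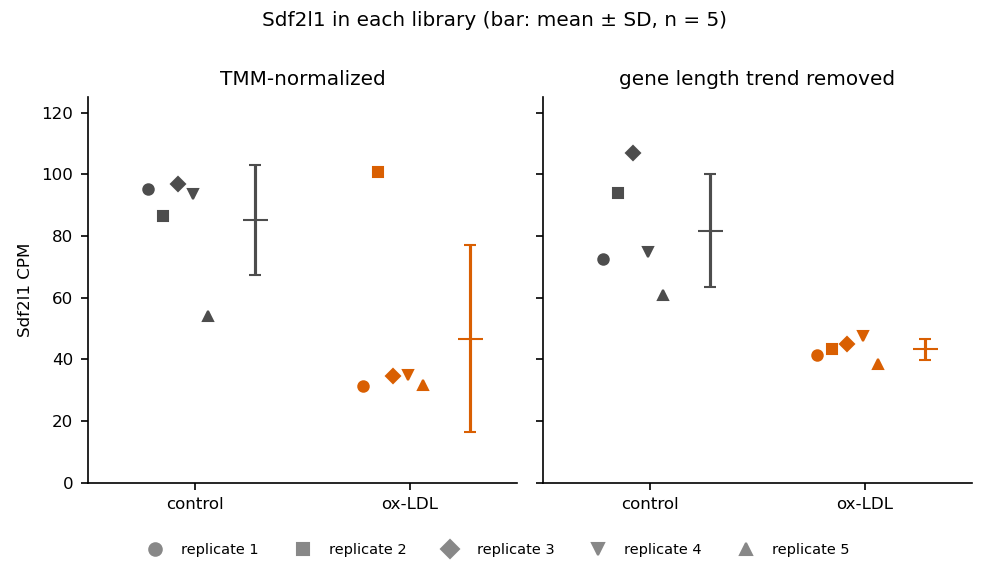
CPM of Sdf2l1 by library under TMM normalization and after removal of the trend with gene length, with a marker shape for each replicate. Ox-LDL replicate 2 was at 100.9 CPM under TMM and at 43.2 CPM once the length trend was removed, where the other ox-LDL libraries were at 38.6 to 47.6 CPM.

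Dnajb9 (NCBI gene 27362, chr12:45306884-45311055, minus strand) encodes ERdj4, a J-domain partner of BiP that is known as a target of spliced XBP1. Its level was 74.4, 60.9, 66.0, 72.8 and 37.6 CPM in controls 1 to 5 and 67.0, 72.4, 63.1, 46.7 and 25.9 CPM in ox-LDL replicates 1 to 5. The lowest library of each group was replicate 5, and the remaining libraries overlapped widely. The log2 fold change of Dnajb9 was -0.18 (SE 0.28, edgeR adjusted p = 0.680), and over fits with 1 library left out it ranged from -0.34 without ox-LDL replicate 2 to -0.0048 without ox-LDL replicate 5, with a value of -0.32 without control replicate 5. Herpud1 (NCBI gene 64209, chr8:96910338-96919277, plus strand), which encodes a membrane protein that helps to gather the machinery of ER-associated degradation, was at 18.9, 24.0, 24.2, 19.9 and 17.6 CPM in controls 1 to 5. In ox-LDL replicates 1 to 5 Herpud1 was at 18.2, 20.3, 16.1, 18.1 and 8.06 CPM, with ox-LDL replicate 5 the lowest of all libraries. The log2 fold change of Herpud1 was -0.37 (SE 0.24, edgeR adjusted p = 0.267), which moved to -0.51 (adjusted p = 0.0930) when ox-LDL replicate 2 was left out and to -0.21 (adjusted p = 0.392) when ox-LDL replicate 5 was left out. The transcript Gm15890 overlaps Herpud1 on the opposite strand.

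Xbp1 (NCBI gene 22433, chr11:5420662-5425896, plus strand) encodes the transcription factor that IRE1 activates by splicing, and a count per gene does not separate its spliced from its unspliced mRNA. Its level was 194, 188, 195, 223 and 201 CPM in controls 1 to 5 and 139.7, 256, 145, 146 and 254 CPM in ox-LDL replicates 1 to 5. No ox-LDL library lay within the narrow range of the controls, since 3 lay below it and replicates 2 and 5 lay above it. The means of Xbp1 were 200.3 ± 13.6 and 188 ± 60.8 CPM (SD, n = 5 per group), a log2 fold change of -0.09 (SE 0.23, edgeR adjusted p = 0.810). It was -0.27 without ox-LDL replicate 2, -0.21 without ox-LDL replicate 5 and -0.06 without control replicate 4, and it lay between -0.0124 and -0.0012 without ox-LDL replicate 1, 3 or 4. With the length trend removed, replicates 2 and 5 were still above every control, at 231 and 256 CPM, beside 187 to 217 CPM in controls. With ox-LDL replicates 2 and 5 and control replicate 5 left out together, an alternative chosen after the values were seen, the log2 fold change of Xbp1 was -0.53 (edgeR adjusted p = 0.0116) and that of Sdf2l1 was -1.52 (adjusted p = 3.26e-05).

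Levels of different genes were compared by FPKM, the deposited value scaled by gene length and library size. Calr was highest with a median of 347 FPKM over the 10 libraries, followed by Hspa5 at 257 and Hsp90b1 at 247. The glycoprotein isomerase Pdia3 was next at 194 FPKM, and the transcription factor Xbp1, at 91.6 FPKM, was on a level with Canx at 84.8. The co-chaperones Sdf2l1 and Dnajb9 were at 61.8 and 38.0 FPKM, Pdia4 was at 29.7 FPKM and Herpud1 was lowest at 11.1 FPKM. The ranges of all 9 neighbouring pairs overlapped, and the order of medians differed between the groups. In controls Hsp90b1 was above Hspa5 (266 and 262 FPKM) and Sdf2l1 above Canx (93.4 and 87.9 FPKM), whereas in ox-LDL libraries Canx was above Sdf2l1 (81.7 and 38.2 FPKM) and above Xbp1 (75.7 FPKM), and Pdia4 was above Dnajb9 (30.2 and 29.1 FPKM). Within single libraries, Hsp90b1 was above Pdia3, Pdia3 above Xbp1 and Pdia4 above Herpud1 in all 10, whereas Hspa5 was above Hsp90b1 in 4 and Xbp1 above Canx in 6. The 10 genes lay between percentiles 64.9 and 97.7 of all genes tested by median FPKM. Together they held 0.248% to 0.443% of the counts in controls and 0.141% to 0.336% in ox-LDL libraries, lowest in ox-LDL replicate 2.

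**Figure D4:**
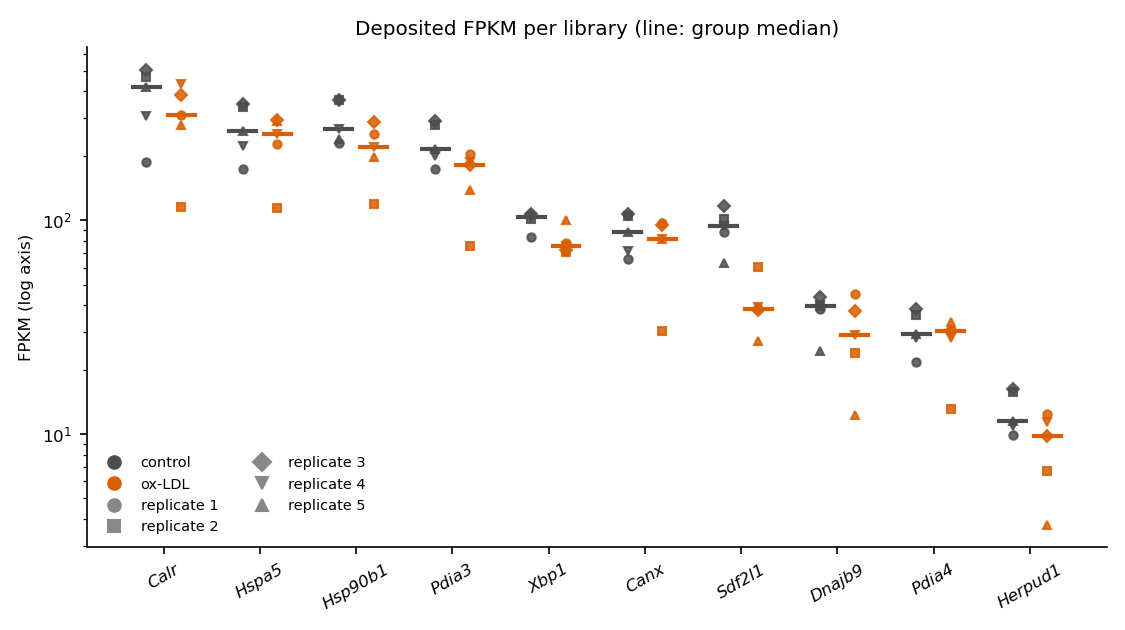
FPKM of the 10 genes on a log axis in order of their median over 10 libraries, with each library as a point. The median falls from 347 FPKM for Calr to 11.1 FPKM for Herpud1, and the ranges of neighbouring genes overlap.

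The genes did not vary as a single block across libraries. Over the 10 libraries, the Pearson correlation of log2 CPM was 0.90 between Hspa5 and Pdia4, 0.83 between Canx and Pdia4 and 0.81 between Hsp90b1 and Pdia3. Dnajb9 and Herpud1 had a correlation of 0.79 with each other, while Hspa5 and Dnajb9 had one of -0.55. These values are a description, since the libraries share the 2 groups, the normalization and the length trends. The mean of the 10 genes, each centred on its own average log2 CPM, was -0.09 to 0.34 in controls and -0.21 to -0.05 in ox-LDL libraries, so control replicate 5 lay within the range of the ox-LDL libraries. The 5 other genes whose log2 CPM was most like this mean were an unnamed transcript (BGIG10090_36745, Pearson r 0.93), Ap1s3 (0.90), Magt1 (0.89), Pgm3 (0.89) and Dgkg (0.88), over 10 libraries. Of these, Ap1s3 had a log2 fold change of -1.90 (adjusted p = 3.06e-04) and Dgkg one of -4.38 (edgeR adjusted p = 4.90e-04), and the other three were not called.

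By promoter element, the 5 genes with ERSE or ERSE-II had log2 fold changes of -0.37 to 0.00 with a median of -0.16, and the 5 without had -0.87 to -0.03 with a median of -0.18. The ranges overlapped, and no gene of either kind was called higher.

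The other genes of the response were taken from 7 lists with 114 genes, of which 113 were tested. At an adjusted p below 0.01, 7 of them were higher and 2 lower, beside 9.4% and 5.35% of all genes tested. Their median log2 fold change was 0.22, and with library size alone it was -0.05, where the median over all genes moved from 0.10 to -0.09. The count of 7 rested on the set of libraries, as it was 13 without ox-LDL replicate 2 and 2 to 4 without any other single library. The count of 2 lower genes was 10 without ox-LDL replicate 2 and 1 or 2 without any other. In the fit without ox-LDL replicate 2, 1755 of all 12973 genes tested were called higher and 1502 (11.6%) lower.

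**Figure D5:**
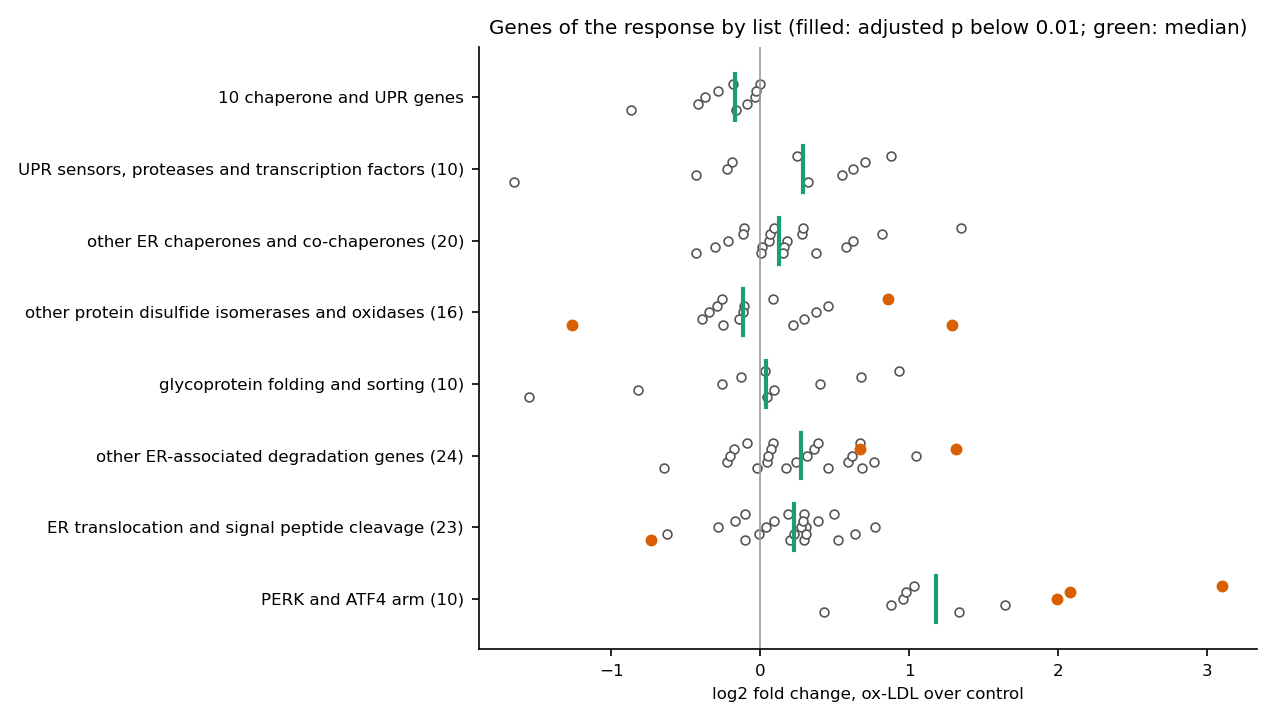
Log2 fold change (ox-LDL over control) of each gene tested in the 7 lists and of the 10 chaperone and UPR genes, with the list median as a line and genes at an adjusted p below 0.01 filled. The list of the PERK and ATF4 arm lies above 0 throughout, with a median of 1.18, whereas the 10 chaperone and UPR genes have a median of -0.17.

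Among 10 sensors, proteases and transcription factors, 0 were called in either direction and the median log2 fold change was 0.29. Ern1, which encodes IRE1, was at 16.1 ± 4.41 CPM for controls and 29.5 ± 7.501 CPM for the ox-LDL group (SD, n = 5 per group), with 9.85 to 21.2 CPM in controls and 23.0 to 39.0 CPM in ox-LDL libraries. Its groups did not overlap, as was so in this direction for 11.6% of all genes tested, and its log2 fold change of 0.88 (SE 0.24) had an adjusted p of 0.0187 from edgeR and missed the threshold. The edgeR adjusted p of Ern1 was 0.00810 without ox-LDL replicate 2 and 0.00524 with the length trend removed. Without any other single library Ern1 was not called (edgeR adjusted p up to 0.0537). Of 15 further alternatives, the removal of the length trend among them, Ern1 was called in 3. Atf6 had a log2 fold change of 0.25 (adjusted p = 0.410) and Eif2ak3, which encodes PERK, one of -0.43 (edgeR adjusted p = 0.276), both with overlapping groups.

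Of 10 genes tested in the list of the PERK and ATF4 arm, 3 were called higher and 0 lower. The shares over all genes tested were 9.4% and 5.35%. All 10 log2 fold changes were positive, with a median of 1.18, beside 7117 positive ones among all 12654 genes tested. With the length trend removed 5 of the 10 were called higher, beside 1551 of 12654. Without ox-LDL replicate 2 it was 3 of the 10, beside 1755 of 12973. Ppp1r15a, which encodes GADD34, the phosphatase subunit that restores translation, was at 19.1 to 25.5 CPM in controls and 64.8 to 117 CPM in ox-LDL libraries. The groups of Ppp1r15a did not overlap, and its log2 fold change was 2.08 (SE 0.19, edgeR adjusted p = 2.72e-05). It stayed below an adjusted p of 0.01 with each library left out in turn. Trib3, a pseudokinase gene that ATF4 and CHOP are known to raise, had a log2 fold change of 1.99 (edgeR adjusted p = 0.00895) with overlapping groups, and with 1 library left out the call was kept only without control replicate 3 or ox-LDL replicate 5 (adjusted p up to 0.0269). Its call was also lost with limma-voom, upper-quartile scaling, library size alone, limma on FPKM and the replicate number as a block. The same was so with every gene that had a count and with 10 counts required in every library. Nupr1, which encodes a stress-induced chromatin protein, had 6.39 to 13.2 CPM in controls and 23.5 to 287 CPM in ox-LDL libraries. The log2 fold change of Nupr1 was 3.10 (edgeR adjusted p = 0.00563), with a range of 1.77 to 3.34 when a library was left out, and the call was lost without any one control or without ox-LDL replicate 5 (adjusted p up to 0.0179). The call of Nupr1 was also lost with every gene that had a count, limma on unfiltered FPKM and the replicate number as a block. Atf4 itself had a log2 fold change of 0.88 (adjusted p = 0.0589), or 0.52 (adjusted p = 0.0836) without ox-LDL replicate 2, and Ddit3, which encodes CHOP, one of 1.65 (edgeR adjusted p = 0.0352). Ddit3 was at 40.0 to 59.0 CPM in controls and 62.2 to 454 CPM in ox-LDL libraries, without overlap. Without ox-LDL replicate 2 its log2 fold change was 0.69 (edgeR adjusted p = 0.0236), and it was called in 0 of 10 fits with 1 library left out. With the length trend removed Ddit3 was called, at a log2 fold change of 1.37 (edgeR adjusted p = 8.42e-04). Of 15 further alternatives, that one among them, Ddit3 was called in 2, the other being DESeq2.

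In the list of other disulfide isomerases and oxidases, 2 of 16 genes were higher and 1 was lower, with a median log2 fold change of -0.11. Over all genes tested, 9.4% were higher and 5.35% lower. Erp29, which encodes a thioredoxin-fold ER protein that assists secretion, fell from 239 ± 45.7 to 99.5 ± 25.7 CPM (SD, n = 5 per group) without overlap, a log2 fold change of -1.27 (SE 0.23, edgeR adjusted p = 0.00172) that passed with each library left out. Ero1a, the oxidase that recharges the isomerases, rose from 52.8 ± 7.67 to 129 ± 67.8 CPM (SD, n = 5 per group), with a log2 fold change of 1.29 (edgeR adjusted p = 0.00678). Qsox1, a further thiol oxidase gene, had a log2 fold change of 0.86 (edgeR adjusted p = 0.00864). The call of Ero1a was lost without any one control or without ox-LDL replicate 3 (adjusted p up to 0.0221), and that of Qsox1 was kept only without ox-LDL replicate 2 (adjusted p up to 0.0289 without another library). Both calls were also lost with library size alone, limma on FPKM and the replicate number as a block. That of Qsox1 was lost as well with upper-quartile scaling and with every gene that had a count.

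Of 24 tested genes of ER-associated degradation besides Herpud1, 2 were higher and 0 lower, beside 9.4% and 5.35% of all genes tested. Their median log2 fold change in this list was 0.28. Without ox-LDL replicate 2 the list had 5 higher and 1 lower gene and a median of 0.11. That fit called 1755 of all 12973 genes tested higher and 1502 lower. Ubxn4, which encodes erasin, a membrane adaptor for the ATPase p97, had a log2 fold change of 1.31 (edgeR adjusted p = 0.00227) and passed with each library left out, although not with library size alone or with limma on FPKM (adjusted p up to 0.0978). Faf2, the gene of another p97 adaptor, had one of 0.67 (edgeR adjusted p = 0.00883) and, with 1 library left out, passed only without ox-LDL replicate 2 (adjusted p up to 0.0289 without another library). Faf2 also did not pass with upper-quartile scaling, DESeq2 size factors in edgeR, library size alone, every gene that had a count, limma on FPKM or the replicate block. The 23 translocation and signal peptide cleavage genes had a median of 0.23. Beside 9.4% and 5.35% of all genes tested, 0 of the 23 were higher and 1 was lower. That gene was Spcs3, a subunit of signal peptidase, at 152 ± 15.9 CPM for controls and 91.5 ± 10.7 CPM for the ox-LDL group (SD, n = 5 per group), with a log2 fold change of -0.73 (edgeR adjusted p = 0.00656) that, with 1 library left out, passed only without control replicate 5, ox-LDL replicate 2 or ox-LDL replicate 5 (adjusted p up to 0.0231). Spcs3 also did not pass with library size alone, every gene that had a count, limma on FPKM or the replicate number as a block. The median of the translocation list turned to -0.39 without ox-LDL replicate 2, where 6 of its genes were lower, beside 11.6% of all genes tested. None of the 20 other chaperones and co-chaperones and none of the 10 genes of glycoprotein folding and sorting was called in the fit of all libraries, with medians of 0.12 and 0.04. Without ox-LDL replicate 2 each of these lists had 1 higher and 1 lower gene, and the medians were -0.04 and -0.01.

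Markers of other cells were read beside these results, because plasma cells and stromal cells make much ER protein. The summed level of 10 B and plasma cell markers was 110.5 to 319 CPM in controls and 129 to 499 CPM in ox-LDL libraries, scaled by library size. Nearly all of it was Sdc1, at 109 to 315 and 128 to 498 CPM, while the defining plasma cell markers Mzb1 and Jchain reached at most 0.518 and 0.400 CPM in any library. The sum of 9 mesothelial and stromal markers was 7.64 to 29.6 CPM in controls and 13.3 to 85.04 CPM in ox-LDL libraries, of which Col1a2 reached at most 34.8 CPM and the mesothelial marker Msln at most 0.319 CPM. Of the 4 of these markers tested, 2 were called higher. The part of stromal RNA in the values of the ER genes was not tested. Neutrophil markers were summed at 7.67 to 38.7 and 2.08 to 11.3 CPM, those of eosinophils and mast cells at 3.01 to 11.2 and 0.574 to 3.25 CPM, those of T and NK cells at 1.36 to 2.15 and 0.991 to 1.65 CPM and those of dendritic cells at 1.58 to 3.00 and 2.80 to 4.62 CPM in control and ox-LDL libraries.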

How the data were processed

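Total RNA of 10 macrophage cultures was sequenced on a BGI platform. Reads were aligned to mm9, and the submitters' processing notes name FastQC, HISAT2 (version 2.0.5), SAMtools (version 1.4) and StringTie (version 1.3.3.13). The authors deposited estimated counts per gene, not normalized, of which 13.57% were not whole, and the counter, its version and its use of strand are not given in the sources used here. The authors also deposited a value scaled by gene length and library total, treated here as FPKM although its unit is not named, since the gene length it implies hardly varied between libraries (median coefficient of variation 0.581% over 1390 genes).

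Estimated counts were rounded. Rows of 9788 circular RNAs (1.44% to 2.24% of counts) were left out, a choice made after the data were seen. Genes were filtered by edgeR's filterByExpr, scaled by TMM and tested by edgeR's quasi-likelihood test (edgeR 4.0.16, limma 3.58.1, R 4.3.3) with Benjamini-Hochberg adjustment over 12654 genes at an adjusted p below 0.01. The biological coefficient of variation was 37.3%. Between any 2 libraries of a group, the mean chi-square per gene was 12 to 593, well above sampling noise. The script was tested on simulated data. Intervals are 95% confidence intervals.

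The genes and lists were chosen with earlier results of these data known. Named were the 10 genes, Ern1, Atf6, Eif2ak3, Atf4 and Ddit3, up to 3 genes with the highest and up to 3 with the lowest fold change among those called in each list, and the 5 genes most like the mean of the 10. The single markers, the pairs of genes with named correlations and the promoters printed were picked after their values were seen. Symbols were paired for 22818 of 23382 NCBI identifiers by RefSeq (GRCm38.p6, names only), and gene coordinates are from GENCODE on NCBIM37. Alternatives were DESeq2 (version 1.42.0), limma-voom, other scalings, filters and thresholds, limma on log2(FPKM + 1) for genes at 1 FPKM or more in at least 5 libraries, the replicate number as a block, removal of each library's length trend by a lowess curve (span 0.3), each library left out in turn and, chosen after seeing the data, 3 libraries left out together. Markers Ly6g and Epx were not analysed here. Protein sequences were not used here.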

Additional observations from a re-analysis of the deposited data

Results flagged for a closer look

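Of the 20 groups of 5 libraries examined, 1 for each of the 10 genes in each condition, 3 held a library whose gap to the nearest other library exceeded 0.71 of the range of the group, the limit used for 5 values. Chance flags about 1 in 20 groups. For Sdf2l1, ox-LDL replicate 2 was at 100.9 CPM beside 31.4 to 35.0 CPM in the other ox-LDL libraries, a gap of 0.947 of the range. For the same gene, control replicate 5 was at 54.0 CPM beside 86.6 to 97.0 CPM in the other controls, a gap of 0.758. For Pdia3, ox-LDL replicate 2 was at 322 CPM beside 414 to 428 CPM, a gap of 0.867. The trend of that library with gene length was -0.66, and after its removal Sdf2l1 was at 43.2 CPM and Pdia3 at 327 CPM in ox-LDL replicate 2. The cause of these flags was not tested.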

How the results depend on the processing

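Over 25 alternatives no gene of the 10 was called higher, and the median of the 10 stayed negative. Sdf2l1 was the gene called lower, giving a count of 1, with the length trend removed, library size alone, the 3 libraries left out, limma on log2(FPKM + 1) with and without the filter and limma on log2(FPKM + 0.1), and the count ranged from 0 to 1 with single libraries left out. Under DESeq2 the count was also 1, from Pdia3. The count over all genes was 3009 with DESeq2, 3365 at an adjusted p below 0.05, 1026 with limma on unfiltered FPKM, 3599 with 3 libraries left out and 1262 to 3257 with one left out. Of the other pathway genes 14 were higher and 5 lower with DESeq2, 4 and 5 with upper-quartile scaling, 2 and 1 with library size alone, 4 and 1 with every gene that had a count, 16 and 4 with the length trend removed, 15 and 16 with 3 libraries left out, and 15 and 7 at an adjusted p below 0.05. Higher genes were 2 with limma on FPKM with a pseudocount of 1, 2 with 0.1 and 1 without the filter, and 1 gene was lower with a log2 fold change above 1 required. With one library left out the higher count was 2 to 13 and the lower one 1 to 10. The cause was not tested. The replicate block gave 1434 genes, with 2 pathway genes higher and 1 lower. The numbers are not known to pair the cultures, since the correlations of same-numbered deviations were 0.02, -0.27, 0.44, -0.28 and 0.41, and only control replicate 5 correlated best with its own number. The sign of Hspa5, never called, turned to -0.0036 with DESeq2 and with its size factors, -0.0139 with limma-voom, -0.0091 with 10 counts required, -0.0089 with circular RNA rows, -0.0169 with the replicate block, -0.0616 with every gene that had a count, -0.16 with upper quartile, -0.17 with 3 libraries left out, -0.19 with library size alone and -0.22 with limma on FPKM under each pseudocount and filter. With single libraries left out, Hspa5 ranged from -0.16 to 0.0837, Canx from -0.14 to 0.0458 and Pdia4 from -0.20 to 0.0142. The share of calls that were higher was 63.7% and moved to 42.6% with limma on log2(FPKM + 1) and 54.2% with upper quartile. With 5 libraries per group, the 95% confidence interval of the fold of Hspa5 ran from 0.692 to 1.45.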

Other observations

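The count of Hspa5 relative to that of Pdia3 within a library, which does not depend on the scaling of libraries, was 0.965, 1.16, 1.15, 1.06 and 1.17 in controls 1 to 5 and 1.07, 1.45, 1.57, 1.297 and 2.02 in ox-LDL replicates 1 to 5. The groups overlapped through ox-LDL replicate 1, and the other ox-LDL libraries were above every control. The count of Xbp1 relative to that of Dnajb9 was 2.61 to 5.33 in controls and 2.08 to 9.78 in ox-LDL libraries, with replicate 5 the highest of each group. Both pairs of genes were chosen after their values were seen and were not tested.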
